A study of Homo sapiens with 8 samples.

Results

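AP1 is the dimeric transcription factor built from Fos and Jun proteins, and its subunits were followed at the RNA level in MCF10A and DCIS.COM breast epithelial cells with and without forced expression of the long non-coding RNA HOTAIR. The genes were taken by symbol: the Fos family (FOS, FOSB, FOSL1, FOSL2), the Jun family (JUN, JUNB, JUND), ATF3, and EGR1. EGR1 is a zinc-finger factor and not an AP1 subunit, and it was taken along because it is induced by the same stimuli. All 9 were among the 13771 genes with values. MCF10A is an immortalized, non-transformed line from human mammary epithelium, and DCIS.COM was derived from a xenograft of HRAS-transformed MCF10A cells and forms comedo-type lesions in mice. Each line had been transduced with a lentiviral pCDH vector, either empty (pCDH-empty, the control) or carrying HOTAIR (pCDH-HOTAIR), and all 4 groups had gone through puromycin selection, with RNA taken from plates that were not yet confluent. Each group had 2 RNA-seq libraries, 8 in all. The groups are populations of transduced cells with HOTAIR driven from a vector, and no label says that the paired libraries of a group came from separate cultures, so the p-values measure the spread between libraries, which may be technical.

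Fos and Jun proteins carry a basic region and a leucine zipper, and they bind DNA only as pairs. Jun proteins can pair with each other or, more stably, with a Fos protein, whereas Fos proteins need a partner, and ATF3 pairs with Jun proteins and often acts as a repressor. FOS, FOSB, JUN, JUNB, ATF3 and EGR1 are immediate early genes, whose transcription rises within minutes of growth factor or stress signals through ERK, JNK and p38 kinases. FOSL1 and FOSL2 last longer after such signals, and FOSL1 is tied to sustained ERK signalling and invasive breast epithelium. JUND is the most constant member of its family.

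The immediate early genes carry short elements just before their start sites through which these signals, and AP1 itself, reach them. Promoter sequence for 8 of the 9 genes, all but FOSL1, was read from a RefSeq table on GRCh38.p14, taking the 250 bases before the start. The 3 printed here hold, in turn, the kind of element through which JUN is known to control itself, a cyclic AMP response element, and the serum response boxes of EGR1, and they belong to 2 genes that were much lower or higher in DCIS.COM and to JUND, which differed less. Capitals mark the TGACATCA element of JUN at 67 to 60 bases before the start (chr1:58784048-58784297, minus strand), the TGACGTCA element of JUND at 200 to 193 bases before the start (chr19:18281623-18281872, minus strand), and the pair of CArG boxes of EGR1 at 105 to 96 and 83 to 74 bases before the start (chr5:138465229-138465478, plus strand). Each is written 5′ to 3′ along the gene's strand.
JUN: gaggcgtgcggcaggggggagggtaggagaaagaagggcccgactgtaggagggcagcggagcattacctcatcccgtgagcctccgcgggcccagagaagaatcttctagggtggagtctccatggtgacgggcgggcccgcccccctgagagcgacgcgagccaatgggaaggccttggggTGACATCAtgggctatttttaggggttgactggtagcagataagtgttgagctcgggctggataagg
JUND: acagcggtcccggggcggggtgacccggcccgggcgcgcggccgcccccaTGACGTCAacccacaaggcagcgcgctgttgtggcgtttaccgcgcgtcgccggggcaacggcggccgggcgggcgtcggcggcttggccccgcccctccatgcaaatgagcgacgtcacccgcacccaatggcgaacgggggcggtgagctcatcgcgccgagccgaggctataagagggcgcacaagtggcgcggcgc
EGR1: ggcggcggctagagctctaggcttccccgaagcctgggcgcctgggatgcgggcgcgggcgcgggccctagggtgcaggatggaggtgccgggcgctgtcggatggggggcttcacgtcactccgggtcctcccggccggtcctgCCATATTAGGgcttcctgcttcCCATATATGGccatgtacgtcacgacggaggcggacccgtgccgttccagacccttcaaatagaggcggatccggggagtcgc

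Of the same windows in 27305 promoters, searched on both strands, TGACATCA was found in 2.45% and in 2 of the 8 promoters, those of JUN and ATF3. TGACGTCA was in 1.77% and in 1 of 8, a CArG box in 1.14% and in 1 of 8, and no 2 marked matches overlapped. The plain AP1 element TGACTCA, present in 4.16% of promoters, and the EGR element GCGTGGGCG, present in 0.710%, had no match in the 8 windows. These are matches of letters in a window and not measured binding.

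Before the members, 3 facts of the whole series bear on their values. HOTAIR itself checked the labels: its log2 CPM (CPM, reads scaled to library size, on a log2 scale) was 0.60 and 0.66 in MCF10A pCDH-empty, 7.90 and 7.92 in MCF10A pCDH-HOTAIR, 2.01 and 2.41 in DCIS.COM pCDH-empty, and 7.66 and 7.57 in DCIS.COM pCDH-HOTAIR. Recovered depth in MCF10A was 31598168 and 27005146 reads with the empty vector and 19306864 and 19675113 with HOTAIR. In DCIS.COM it was 32258562 and 25819136 with the empty vector and 34884841 and 32770295 with HOTAIR. Depth thus differed between the vector groups, in opposite directions in the lines, and read counts given below are not scaled for it. The library DCIS.COM pCDH-empty 1 stood apart: over all genes its distance to its replicate was 46.4 and to the HOTAIR libraries of the line 50.2 and 51.3, against 22.3 to 30.1 among the other 3, and RN7SL1 and RN7SL2 took 18.9% of its reads against 12.5% to 13.8% in those 3. Member values in the comparisons it enters are therefore in part also given without it. The level ranges, the shares of the Fos and Jun pool and the gene lists between the lines include it. The media differed too, with EGF, insulin, hydrocortisone and cholera toxin in the MCF10A medium and horse serum alone as supplement for DCIS.COM, so that in every comparison of the lines the medium and the cell line cannot be told apart. All 10 breast epithelial markers had values, with a summed level of 16466 to 18389 CPM in MCF10A and 7806 to 9247 CPM in DCIS.COM. With the empty vector 5 of the 10 were higher and 5 lower in DCIS.COM, at a median log2 fold change of -0.095. The values ran from -6.95 to 2.35, with the keratins KRT6A at -6.95, KRT14 at -4.66, KRT5 at -2.61 and KRT17 at -2.56. At a limma adjusted p under 0.05 and a fold of at least 1.5, 4 were higher and 5 lower, beside 46.3% of all genes passing. Of 8 leukocyte, endothelial and fibroblast markers, CD14, PECAM1 and CD68 had values, together 43.8 to 49.0 CPM in MCF10A and 16.4 to 19.9 CPM in DCIS.COM, and the part of either marker list in the differences between the lines was not tested.

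In the 4 MCF10A libraries JUNB was the most abundant of the 9 transcripts, and FOSL2 led the Fos family. Levels of different genes are compared here only per length, as CPM per kilobase of annotated exon. JUNB lay at 62.5 to 77.2, above FOSL2 at 31.3 to 34.8 and JUN at 23.8 to 34.2. FOSL2 and JUN overlapped, and JUND followed at 16.1 to 17.8. FOSL1 at 4.36 to 6.74 and FOS at 4.12 to 4.73 overlapped on a lower step. ATF3 at 0.529 to 0.633, EGR1 at 0.112 to 0.165 and FOSB at 0.0404 to 0.0609 came last, in that order and without overlap.

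In DCIS.COM the order changed below JUNB. On the same per-kilobase scale JUNB lay at 26.5 to 28.9, JUND at 5.67 to 7.22, FOSL1 at 3.13 to 5.73 and FOSL2 at 2.90 to 3.93. These last 3 are neighbours that overlapped in turn. JUN came next at 1.86 to 2.25 and EGR1 at 1.14 to 1.37, above FOS at 0.428 to 0.748. ATF3 at 0.177 to 0.281 and FOSB at 0.145 to 0.276 overlapped at the bottom. EGR1, which in MCF10A stood below every Fos and Jun gene but FOSB, thus stood above FOS in all 4 DCIS.COM libraries. With the length of the canonical transcript alone, FOS lay at 6.23 to 7.16 in MCF10A and still overlapped FOSL1.

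**Figure D1:**
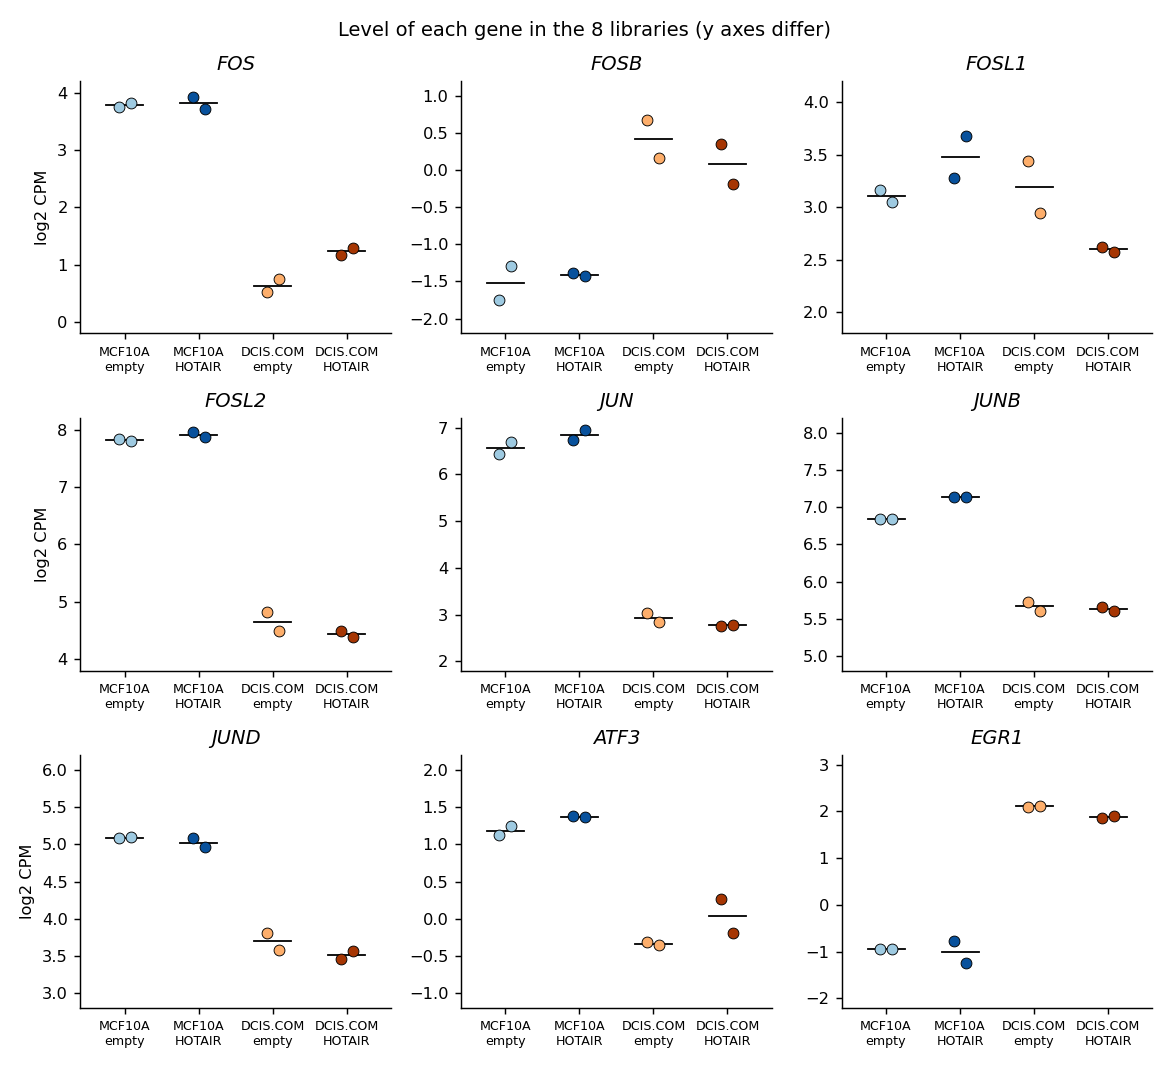
Deposited log2 CPM (y axis, a different range in each panel) of the 9 genes in the 8 libraries; points are libraries, bars are the means of the 2 libraries of a group. FOS, FOSL2, JUN, JUNB, JUND and ATF3 are lower and FOSB and EGR1 higher in every DCIS.COM library than in any MCF10A library, whereas the FOSL1 values of the lines overlap.

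The first comparison asked how the AP1 genes differ between the non-transformed and the carcinoma in situ line carrying the empty vector. DCIS.COM had lower JUN, FOSL2, FOS, ATF3, JUND and JUNB, higher EGR1 and FOSB, and no detected difference in FOSL1. Of the 9 genes, 8 were called, at an adjusted p under 0.05 in limma and a fold of at least 1.5, with 2 higher and 6 lower. The background is high, since 46.3% of all 13771 genes were called (22.5% higher and 23.8% lower), and the 2 groups did not overlap for 81.6% of genes. Without the library that stood apart the log2 fold changes were -3.73 for JUN, -3.34 for FOSL2, -3.04 for FOS and -1.54 for ATF3. They were -1.52 for JUND, -1.24 for JUNB, 3.06 for EGR1 and 1.68 for FOSB. With all 8 libraries the median log2 fold change over the 9 genes was -1.40, and over all genes -0.000117.

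JUN, the founding Jun gene and the strongest activator of its family, gave the largest difference. Its log2 CPM in MCF10A pCDH-empty was 6.43 and 6.70, and in DCIS.COM pCDH-empty 3.04 and 2.83. Both DCIS.COM libraries lay far below both MCF10A libraries, with 245 and 189 reads against 2689 and 2755. The log2 fold change was -3.63 (SE 0.12, n = 2 against 2, limma adjusted p = 1.03e-07), a 12.4-fold lower level, and 93.5% of all genes had a smaller absolute change. JUN lies at chr1:59242517-59249720 on the minus strand of GRCh37, with no other annotated gene over it.

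JUNB and JUND, which activate many AP1 sites less than JUN and can restrain it, were lower by less. JUNB was at 6.84 and 6.84 in MCF10A and 5.72 and 5.60 in DCIS.COM, on the log2 CPM scale. JUND was at 5.08 and 5.11 in MCF10A and 3.81 and 3.58 in DCIS.COM. For both genes the groups stood apart by about 1 log2 unit or more. The log2 fold changes were -1.18 for JUNB (SE 0.066, limma adjusted p = 1.49e-06), 2.26-fold lower, and -1.40 for JUND (SE 0.10, limma adjusted p = 7.32e-06), 2.64-fold lower. JUNB (chr19:12902300-12904129, plus strand) is overlapped by HOOK2 of the opposite strand, and whether strand was used in counting is not given in the sources used here.

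In the Fos family, FOSL2 and FOS were lower by similar amounts. FOSL2 was at 7.84 and 7.81 log2 CPM in MCF10A and at 4.82 and 4.48 in DCIS.COM. FOS was at 3.75 and 3.81 in MCF10A and at 0.52 and 0.75 in DCIS.COM, where the libraries held 41 and 43 FOS reads. Neither gene came near to overlapping between the lines. The log2 fold change was -3.17 for FOSL2 (SE 0.11, limma adjusted p = 1.09e-07), 9.01-fold lower, and -3.15 for FOS (SE 0.14, limma adjusted p = 3.83e-07), 8.86-fold lower. FOSL2 (chr2:28615315-28640184, plus strand) shares its locus with FOSL2-AS1 of the opposite strand and with ENSG00000270640 of its own strand, while FOS (chr14:75745529-75748933, plus strand) has no overlapping gene.

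FOSL1 went its own way. Its log2 CPM was 3.17 and 3.05 in MCF10A and 3.44 and 2.94 in DCIS.COM. The DCIS.COM libraries fell on either side of the MCF10A pair, and the higher of them is the library that stood apart. The log2 fold change was 0.08 (SE 0.19, 95% interval -0.36 to 0.52, limma adjusted p = 0.716), so that a difference of a size within that interval remains possible. Without DCIS.COM pCDH-empty 1 the value turned to -0.17, and without DCIS.COM pCDH-empty 2 it was 0.33. FOSL1 lies at chr11:65659520-65668044 on the minus strand.

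FOSB, by contrast, was higher in DCIS.COM, from few reads. Its log2 CPM was -1.76 and -1.29 in MCF10A, from 7 and 9 reads, and 0.68 and 0.16 in DCIS.COM, from 46 and 28 reads. The groups did not overlap, and the log2 fold change was 1.94 (SE 0.30, limma adjusted p = 6.02e-04), 3.84-fold higher. With 1 CPM added before taking logs it was 0.83 and was still called. FOSB (chr19:45971253-45978437, plus strand) is overlapped by ERCC1 of the opposite strand.

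ATF3 and EGR1 moved in opposite directions. ATF3, a stress-induced partner of Jun proteins, was at 1.13 and 1.24 log2 CPM in MCF10A and -0.32 and -0.36 in DCIS.COM. EGR1 was at -0.94 and -0.94 in MCF10A, from 14 and 12 reads, and at 2.09 and 2.13 in DCIS.COM, from 126 and 115 reads. Neither gene overlapped between the lines, and the paired libraries of each group lay close together. The log2 fold change was -1.52 for ATF3 (SE 0.20, limma adjusted p = 2.10e-04), 2.87-fold lower, and 3.05 for EGR1 (SE 0.20, limma adjusted p = 3.82e-06), 8.26-fold higher. With 1 CPM added these became -0.90 and 1.85, and both were still called. ATF3 (chr1:212738676-212794119, plus strand) has RN7SL512P on the opposite strand, and EGR1 (chr5:137801168-137804992, plus strand) has no overlapping gene.

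The same comparison of lines was made between the groups carrying HOTAIR, whose means come from other libraries while the fit shares its estimate of the spread. There all 9 genes were called, 2 higher and 7 lower in DCIS.COM, where 43.7% of all genes were called (22% higher and 21.7% lower) and 89.2% did not overlap. JUN was at 6.73 and 6.95 log2 CPM in MCF10A and 2.76 and 2.77 in DCIS.COM, a log2 fold change of -4.07 (limma adjusted p = 6.22e-08), 16.9-fold lower. FOSL2 was at 7.96 and 7.87 in MCF10A against 4.49 and 4.38, and its log2 fold change was -3.48 (limma adjusted p = 7.37e-08), 11.2-fold lower. The gap was thus again widest for JUN among the members. FOS was at 3.92 and 3.72 against 1.16 and 1.30, a log2 fold change of -2.59 (limma adjusted p = 1.19e-06). JUNB (7.14 and 7.13 against 5.66 and 5.61) and JUND (5.09 and 4.96 against 3.46 and 3.57) had log2 fold changes of -1.50 and -1.51 (limma adjusted p = 3.80e-07 and 4.74e-06). Both kept clear of overlap.

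ATF3 was at 1.38 and 1.36 log2 CPM in MCF10A pCDH-HOTAIR and 0.26 and -0.19 in DCIS.COM pCDH-HOTAIR, a log2 fold change of -1.34 (limma adjusted p = 4.66e-04). EGR1 was at -0.77 and -1.24 against 1.87 and 1.90, and FOSB at -1.39 and -1.43 against 0.36 and -0.19, with log2 fold changes of 2.89 (limma adjusted p = 5.33e-06) and 1.49 (limma adjusted p = 0.00269). Both genes were again higher in each DCIS.COM library. FOSL1, at 3.27 and 3.68 against 2.62 and 2.58, was now lower in DCIS.COM without overlap. Its log2 fold change was -0.88 (SE 0.19, 95% interval -1.32 to -0.44, limma adjusted p = 0.00396), 1.83-fold lower. The median over the 9 genes was -1.50, and over all genes 0.00.

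**Figure D2:**
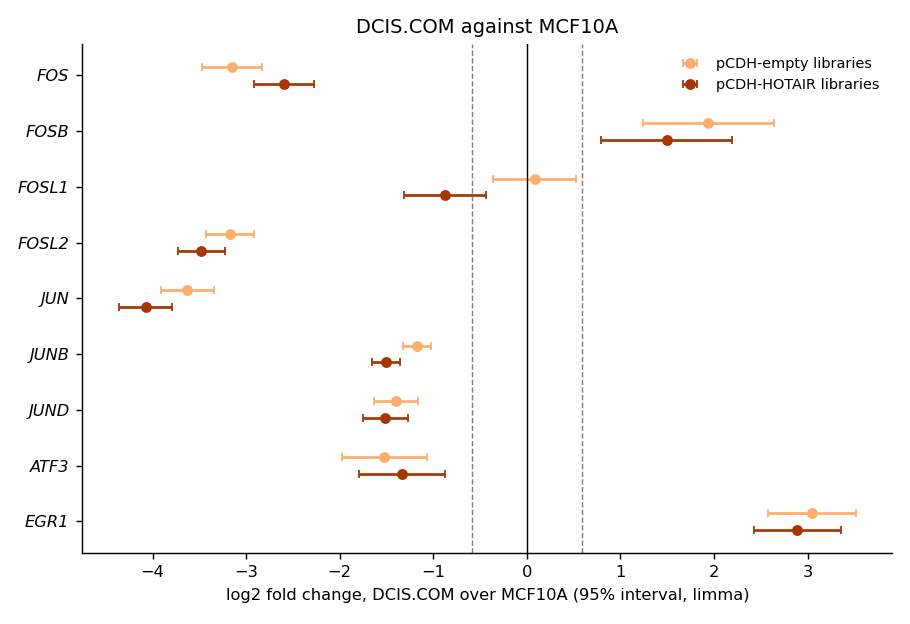
Log2 fold change of each gene in DCIS.COM over MCF10A (x axis), light points for the pCDH-empty and dark points for the pCDH-HOTAIR libraries, with 95% intervals from limma; dashed lines mark a fold of 1.5. Every gene but FOSL1 lies on the same side of 0 in both sets of libraries, and the FOSL1 interval of the empty-vector libraries spans 0.

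The make-up of the Fos and Jun pool, from which AP1 dimers form, also differed between the lines. Summed over the 7 Fos and Jun genes, the level was 145 to 170 CPM per kilobase in the MCF10A libraries and 41.4 to 48.7 in the DCIS.COM libraries. The Fos sum was 40.1 to 44.7 against 6.92 to 10.4, and the Jun sum 104 to 127 against 34.5 to 38.3. In bulk RNA, fewer cells with a transcript and less of it per cell cannot be told apart.

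FOSL2 made up 74.9% to 78.0% of the Fos family in MCF10A and 37.9% to 43.2% in DCIS.COM, where FOSL1 held 44.4% to 55.3% after 10.9% to 15.5% in MCF10A. FOSL1 was the largest Fos share in each of the 4 DCIS.COM libraries and in none of the MCF10A libraries. The FOS share, 9.46% to 10.9% in MCF10A and 4.13% to 10.8% in DCIS.COM, overlapped between the lines, and FOSB went from 0.0989% to 0.152% up to 2.09% to 3.01%. The larger FOSL1 share goes with a FOSL1 level that was not called different with the empty vector and with a lower level of FOSL2.

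In the Jun family JUNB was the main transcript in both lines, with 57.4% to 62.2% in MCF10A and 75.3% to 78.6% in DCIS.COM. The JUN share was 22.9% to 26.9% in MCF10A and 5.28% to 5.87% in DCIS.COM. JUND took 12.7% to 16.8% and 16.1% to 18.8%, and its ranges overlapped. With canonical transcript lengths the FOSL1 share of the Fos family was 10.8% to 15.4% in MCF10A and 43.2% to 54.8% in DCIS.COM.

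**Figure D3:**
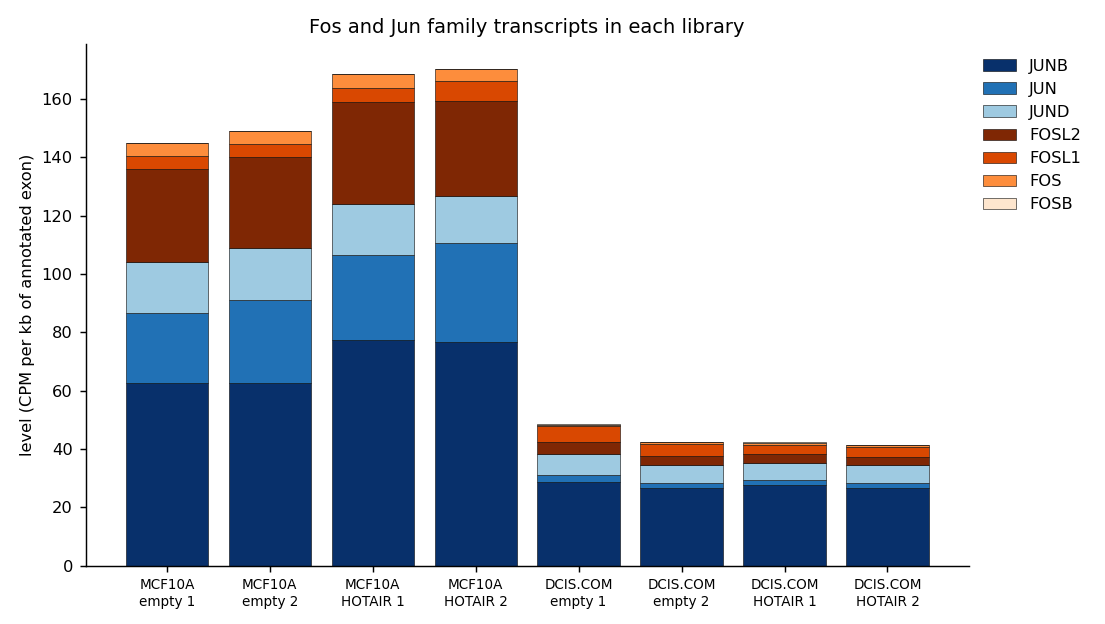
Stacked bars of the 4 Fos and 3 Jun transcripts in each library, in CPM per kilobase of annotated exon (y axis, from 0), blue for Jun and orange for Fos genes. The MCF10A bars reach 145 to 170 and the DCIS.COM bars 41.4 to 48.7, with the smallest JUN and FOSL2 blocks in DCIS.COM.

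Around the subunits, the pathway was followed through lists of genes grouped by role. Among 11 other bZIP genes that can pair with Fos or Jun proteins, 9 had values, and with the empty vector 2 were called higher and 3 lower in DCIS.COM, and the median log2 fold change was -0.29. MAFF, a small Maf protein without a transactivation domain, differed by -1.93, MAF by 3.04 and BATF3 by 1.96. The kinases upstream (ERK, JNK, p38, their activators and RSK) were mostly lower, with log2 fold changes from -1.06 to 0.45. Of 11 kinase genes, none was called higher and 2 lower, MAP2K1 at -1.06 and MAPK14 at -0.67, with a median of -0.43.

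The next list, called ERK feedback genes here, holds genes induced by ERK signalling, most of them feedback inhibitors of it (the DUSP, Sprouty and Spred genes), together with the ETS activators ETV4 and ETV5. Of its 11 genes, 9 were called higher and 0 lower, and the list's median was 1.45 on the log2 scale. The Sprouty genes SPRY1 at 3.90, SPRY4 at 2.91 and SPRY2 at 2.41, inhibitors of receptor tyrosine kinase signalling, and ETV5 at 2.24 had the largest changes. DUSP1, a MAP kinase phosphatase, was counted with the immediate early genes. The summed level of the ERK feedback genes was 541 to 554 CPM in the MCF10A libraries and 1238 to 1388 CPM in the DCIS.COM libraries. The other immediate early genes were mixed. Of 24 listed, 20 had values, 5 were called higher and 7 lower, and the median was -0.21, with DUSP1 at -4.84, KLF6 at -2.46, the nuclear receptor NR4A1 at 4.44 and KLF2 at 2.49. KLF2 had 6 and 4 reads in MCF10A and 42 and 32 in DCIS.COM.

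Of 33 genes known as targets of AP1, 26 had values, and 7 were called higher and 15 lower in DCIS.COM. Their median log2 fold change was -1.11. THBD, the thrombin receptor thrombomodulin, differed by -6.23, and the matrix protein FN1 by -5.22. LIF, a cytokine of the interleukin 6 family, went the other way at 4.61. The summed level of the list was 6199 to 8751 CPM in MCF10A and 3482 to 3996 CPM in DCIS.COM. The lists mix genes that many factors control, and their counts stand beside the 46.3% of all genes called.

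With HOTAIR in both lines the counts were close. The AP1 targets had 6 higher and 15 lower at a median of -1.49 (THBD -6.95, FN1 -6.08, IL1B -5.33), and the ERK feedback genes 9 higher and 0 lower at a median of 1.56 (SPRY1 3.22, SPRY2 2.70, ETV5 2.38, SPRY4 2.18). The immediate early genes had 4 higher and 6 lower at -0.21, with DUSP1 at -5.39 and NR4A1 at 4.37. The bZIP partners again had 2 higher and 3 lower at a median of -0.27, and the kinases 0 higher and 2 lower at -0.36. These stand beside the 43.7% of all genes called.

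**Figure D4:**
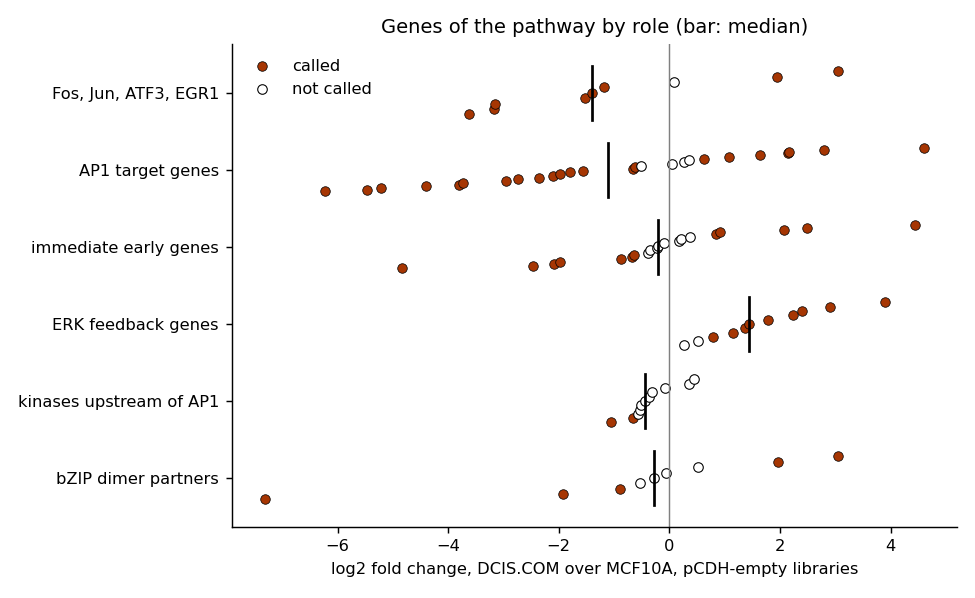
Log2 fold change in DCIS.COM over MCF10A with the empty vector (x axis) for the 9 genes and 5 lists of related genes (rows); each point is a gene, filled where called by limma at adjusted p under 0.05 and a fold of at least 1.5, and bars are medians. The ERK feedback genes all lie to the right of 0 with a median of 1.45, and the AP1 targets spread from -6.23 to 4.61 around a median of -1.11.

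The next comparisons asked whether HOTAIR alters these genes within a line. In MCF10A none of the 9 was called, where 0.0218% of all genes were, and 1 of the 9, JUNB, had an unadjusted p under 0.05, against 7.28% of all genes. Limma-voom on the recovered reads also called 0 of the 9. Both HOTAIR libraries lay above both empty-vector libraries for JUNB, JUN, FOSL1, FOSL2 and ATF3, and below both for none of the 9. Across all genes 22.5% were apart upward and 24.8% downward.

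JUNB was at 6.84 and 6.84 log2 CPM with the empty vector and at 7.14 and 7.13 with HOTAIR, and its libraries agreed closely within each group. That is a log2 fold change of 0.30 (SE 0.066, unadjusted p = 0.00207, limma adjusted p = 0.291). Leaving out either DCIS.COM pCDH-empty library, which enter this fit through the shared spread, brought its adjusted p to 0.0132 at an unchanged fold below 1.5. FOSL1 went from 3.17 and 3.05 to 3.27 and 3.68, a log2 fold change of 0.36 (SE 0.19, limma adjusted p = 0.780), and JUN from 6.43 and 6.70 to 6.73 and 6.95, 0.28 (SE 0.12, limma adjusted p = 0.702). The FOSL1 and JUN differences were of the order of the gaps between libraries of 1 group. ATF3 differed by 0.19, FOSB by 0.11, FOSL2 by 0.09, FOS by 0.04, EGR1 by -0.07 and JUND by -0.07 on the log2 scale.

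In DCIS.COM none of the 9 was called either, where 0.0871% of all genes were, and FOS and FOSL1, 2 of 9, had an unadjusted p under 0.05, against 17.5% of all genes. Limma-voom again called 0. FOS and ATF3 were higher in both HOTAIR libraries than in either control, and FOSL1, JUN, JUND and EGR1 lower. Among all genes 24.7% were apart upward and 24.5% downward.

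FOS was at 0.52 and 0.75 log2 CPM with the empty vector and 1.16 and 1.30 with HOTAIR, from 41 and 43 against 77 and 80 reads. The groups were apart, with a log2 fold change of 0.60 (SE 0.14, 95% interval 0.28 to 0.92, unadjusted p = 0.00271, limma adjusted p = 0.179). Without the library that stood apart it was 0.48 (limma adjusted p = 0.179). FOSL1 was at 3.44 and 2.94 with the empty vector and 2.62 and 2.58 with HOTAIR. Here too the groups were apart, the higher control value being that of DCIS.COM pCDH-empty 1. The log2 fold change of FOSL1 was -0.59 (SE 0.19, 95% interval -1.03 to -0.15, unadjusted p = 0.0146, limma adjusted p = 0.238), and without that library -0.34 (limma adjusted p = 0.383).

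The other 7 genes differed by less. ATF3 was at -0.32 and -0.36 with the empty vector and 0.26 and -0.19 with HOTAIR, 0.37 on the log2 scale (limma adjusted p = 0.340). JUN went from 3.04 and 2.83 to 2.76 and 2.77, -0.17 (limma adjusted p = 0.448), and EGR1 from 2.09 and 2.13 to 1.87 and 1.90, -0.22 (limma adjusted p = 0.535). For these 3 genes the groups did not overlap, and no test was passed. FOSB differed by -0.34, FOSL2 by -0.21, JUND by -0.18 and JUNB by -0.03.

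The calls in DCIS.COM depend on the control library that is kept. With DCIS.COM pCDH-empty 2 left out, so that the library standing apart was the only control and was assumed to vary like the other groups, FOS at 0.71 (limma adjusted p = 0.00579) and FOSL1 at -0.84 (limma adjusted p = 0.00462) were both called. In that fit 10.2% of all genes were called. With DCIS.COM pCDH-empty 1 left out instead, no member was called and 0.436% of all genes were.

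**Figure D5:**
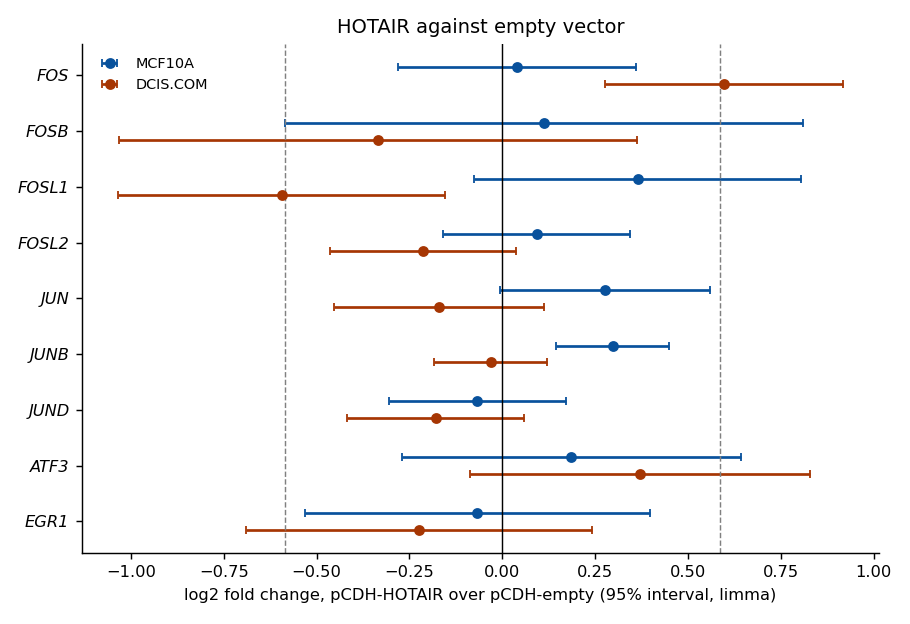
Log2 fold change of each gene with HOTAIR over the empty vector (x axis), blue for MCF10A and red for DCIS.COM, with 95% intervals from limma; dashed lines mark a fold of 1.5. None of the 18 values was called after adjustment; the JUNB interval in MCF10A and the FOS and FOSL1 intervals in DCIS.COM do not reach 0.

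The difference of the HOTAIR effect between the lines was tested as an interaction, at adjusted p under 0.05 with no fold threshold. No member passed, where 0.0436% of all genes did, and 4 of 9 had an unadjusted p under 0.05, against 10.5% of all genes. FOSL1 had the largest value, -0.96 (DCIS.COM minus MCF10A, SE 0.27, unadjusted p = 0.00764, limma adjusted p = 0.389). JUNB at -0.33 (unadjusted p = 0.00811, limma adjusted p = 0.389), FOS at 0.56 (unadjusted p = 0.0223, limma adjusted p = 0.430) and JUN at -0.45 (unadjusted p = 0.0330, limma adjusted p = 0.452) followed. FOSL1 and JUN were the members whose libraries were apart upward in MCF10A and downward in DCIS.COM, and 11% of all genes were apart in opposite directions in the 2 lines, in either order. Leaving out DCIS.COM pCDH-empty 1 gave -0.71 for FOSL1 (limma adjusted p = 0.217) and -0.27 for JUNB (limma adjusted p = 0.105), with 0.646% of all genes passing. Leaving out DCIS.COM pCDH-empty 2 instead let 5 members pass, FOSL1, JUNB, FOSL2, FOS and JUN, in a fit in which 32.1% of all genes passed.

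Of the pathway lists, no gene was called with HOTAIR in MCF10A. Among the AP1 targets the median was 0.20, with 7 of 26 at an unadjusted p under 0.05 beside 7.28% of all genes. This list was chosen with earlier results of these data known, so the count is only a description. Its largest values were those of the receptor kinase AXL at 1.09 (limma adjusted p = 0.215) and of CLU, a secreted chaperone, at -1.09 (limma adjusted p = 0.1001). The authors had already named AXL among the genes raised by HOTAIR in MCF10A. SPRY1, at 0.72 (limma adjusted p = 0.317), had the largest value of the ERK feedback genes, and KLF2, also at 0.72 (limma adjusted p = 0.780), that of the immediate early genes, from 6 and 4 reads against 10 and 4.

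In DCIS.COM 1 gene of the lists was called, the AP1 target MMP14, a membrane-anchored protease that activates other matrix proteases. Its log2 CPM was 5.30 and 5.44 with the empty vector and 6.03 and 5.96 with HOTAIR. The groups were apart, and the log2 fold change was 0.63 (SE 0.070, limma adjusted p = 0.0271). Without DCIS.COM pCDH-empty 1 it was 0.56 (limma adjusted p = 0.00339), under the 1.5-fold line. With any 1 of the MCF10A or HOTAIR libraries left out, without the mean-variance trend, or with the DCIS.COM groups fitted alone, it was not called, at an adjusted p of 0.113 to 0.553. The AP1 target list had a median of -0.04. It was chosen with earlier results known and holds MMP14, which the authors had already named as raised in DCIS.COM. As a description only, 11 of its 26 genes and 7 of the 20 immediate early genes had an unadjusted p under 0.05, beside 17.5% of all genes. Among these early genes was CCN1, a matricellular growth regulator, at -0.55 (limma adjusted p = 0.190). In the interaction no listed gene passed, and IL6 at -1.62 (limma adjusted p = 0.278) and CLU at 1.39 (limma adjusted p = 0.119) had the largest values of the AP1 targets. IL6 had 6 and 6 reads with the empty vector and 2 and 2 with HOTAIR in DCIS.COM.

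Genes with the most similar course were sought after centring every gene on the mean of each cell line, so that the difference between the lines takes no part. Over the 8 libraries and 10704 genes with a mean log2 CPM of at least 2, the highest Pearson r with JUN was that of PXDN at 0.987, PCYOX1L at 0.980 and DEF8 at 0.979. With FOSL1 it was that of PSMD2 at 0.984, LPCAT1 at 0.981 and XKR8 at 0.981, and with FOSL2 that of PAF1 at 0.988, CARD10 at 0.984 and NSMF at 0.982. These are descriptions over points that share libraries and depth, with the highest of many values picked. DCIS.COM pCDH-empty 1, the library that stood apart, is among the points. Of the DCIS.COM libraries it had the highest FOSB, FOSL1, FOSL2, JUN, JUNB and JUND values and the lowest FOS value. How far the correlations rest on that library was not tested. FOS was most like UBE2E3 at 0.993, TRPC1 at 0.992 and SRI at 0.978, and JUNB like ZSCAN26 at 0.976, ZNF395 at 0.975 and SERPINA1 at 0.968. JUND was most like LSM4 at 0.989, XPO5 at 0.984 and PHLDA2 at 0.983. For the thinly read genes the highest values were DIS3L2 at 0.984, BIN3 at 0.979 and C2orf42 at 0.974 with FOSB, DNAJC4 at 0.944, ZNF552 at 0.941 and PKN3 at 0.940 with ATF3, and PPP1R15B at 0.965, ERCC4 at 0.950 and TMEM104 at 0.945 with EGR1.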

How the data were processed

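RNA-seq libraries (ScriptSeq v2, paired ends) were made by the authors, who aligned reads to hg19, counted them with featureCounts and deposited log2 CPM normalized with edgeR. Whole reads were recovered here for 100% of values above a shared prior of 0.0717 CPM. The tolerance was 0.01 reads and widened in proportion to the count for the most highly read genes. Members were chosen by symbol, and they, the gene lists and the tests were chosen with earlier results of these data known. The rule for named genes took all members, up to 4 called genes with the largest change per list and comparison (the 2 largest where none was called), and the 3 most similar genes; some genes it names are not reported here.

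The deposited values of 13771 genes (343 without symbol) were tested with limma 3.58.1 in R 4.3.3, on 4 group means over 8 libraries with a mean-variance trend and Benjamini-Hochberg adjustment over all genes. Exact permutation of 2 libraries against 2 cannot go below p = 0.333. In 10 simulations of DCIS.COM over MCF10A with the empty vector, 200 genes were shifted by 2 log2 units up or down. Of the shifted genes 94.95% were called, and 3.09% of calls were false. Smaller shifts, such as those seen with HOTAIR, and larger numbers of changed genes were not simulated. Positions and exon lengths came from GENCODE on GRCh37. Alternatives were other pseudocounts, scalings, filters, models and fold thresholds, a replicate block, and each library left out; counts over all genes and lists under these, and canonical transcript lengths, were added after seeing the data.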

Additional observations from a re-analysis of the deposited data

How the results depend on the processing

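With 2 libraries a group, calls under HOTAIR rest on single libraries. Leaving out each library in turn gave 0 to 2 members called for HOTAIR in DCIS.COM and 0 to 5 for the interaction, the upper values without DCIS.COM pCDH-empty 2, and 0 under all other alternatives. Between the lines, 6 to 8 members (empty vector) and 6 to 9 (HOTAIR) were called over the other alternatives. A mean CPM of at least 2, which drops FOSB and ATF3 by construction, left 6 and 7, and a log2 fold of at least 1.5 left 6 and 6, with 2418 and 2357 of all genes in place of 6370 and 6018. EGR1 passed the CPM filter only through DCIS.COM, at 4.24 (empty vector) and 3.62 CPM (HOTAIR), against 0.45 and 0.43 CPM in MCF10A. Over all genes the count for HOTAIR in MCF10A was 3 (1 to 6, and 1 to 51 with a library left out), in DCIS.COM 12 (0 to 20, and 1 to 1403), and for the interaction 6 (0 to 10, and 0 to 4414). The AP1 targets called in DCIS.COM with HOTAIR were 0 to 7 with a library left out, and in the interaction 0 to 16. Directions turned with a library left out for uncalled values only: under HOTAIR in MCF10A FOS ran from -0.060 to 0.14, FOSB from -0.12 to 0.35 and EGR1 from -0.31 to 0.17, in DCIS.COM JUNB from -0.091 to 0.030, in the interaction JUND from -0.23 to 0.0038, ATF3 from -0.040 to 0.41 and EGR1 from -0.40 to 0.082, and FOSL1 between the empty-vector lines from -0.17 to 0.33. FOSB in MCF10A was -0.0074 under quantile normalization. The causes were not tested.

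Same-numbered libraries did not deviate together over all genes (correlations of 0.066 within MCF10A and -0.0089 within DCIS.COM). The labels do not say whether the replicate number stands for a batch or a pairing. With the replicate block, 8 and 9 members were called between the lines and 0 for HOTAIR in either line and for the interaction. The counts between the lines stand beside the 46.3% and 43.7% of all genes called without the block. With it, all genes called for HOTAIR in DCIS.COM went from 12 to 20 and for the interaction from 6 to 0.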
